A study of Homo sapiens with 2 samples.

Results

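The HES and HEY genes encode the basic helix-loop-helix repressors through which activated Notch receptors are best known to act, and their transcripts were compared between cells labelled as NICD1-overexpressing and as vector control. The members were taken by gene symbol as HES1, HES2, HES4, HES5, HES6, HES7, HEY1, HEY2 and HEYL, and all 9 were found among the 19198 genes of the deposited tables.

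Gene expression had been profiled by sequencing of polyA RNA in cells labelled A549, an established line derived from a non-small cell lung cancer (NSCLC). A549-NICD1 cells carried the genotype of NICD1 overexpression, NICD1 being the intracellular domain that is released when NOTCH1 is cleaved, and A549-Vector cells carried the vector control. According to the study's methods, NICD1 was cloned in a lentiviral vector, and stable lines were made by viral infection and selected with antibiotics. Whether the cells sequenced were such a line, or a single clone, is not given in the sources used here. With a single library for either condition (1 each), the differences described have no replicate check, and the conditions could not be tested against each other.

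Without Notch activity, RBP-Jκ (RBPJ) sits on its target genes with corepressors and keeps them silent. Cleaved Notch displaces these and, with Mastermind proteins, lets the same genes be transcribed. HES and HEY genes are the classical targets of this complex. Their proteins bind DNA as dimers, recruit corepressors such as those of the Groucho/TLE family and repress differentiation genes, among them the proneural factors, and HES1 is also known for repressing its own promoter.

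Values are FPKM, that is, read counts normalized to gene length and to the reads in the library, and the depth recovered from the values was 48528434 reads for A549-NICD1 and 48602848 reads for A549-Vector. NOTCH1, the overexpressed gene, had a level of 5.40 FPKM with the vector and 2865 FPKM with NICD1, the highest log2 ratio of all genes at 9.09, and its reads do not tell the construct from the endogenous gene. RFC4, a replication factor subunit that the labels do not name as overexpressed, went with it from 39.5 to 4075 FPKM (log2 ratio 6.75), and its part in the results below was not tested. The cell line label was less well matched. In a list of 15 markers for A549, 9 genes were under 1 FPKM in both libraries, and KRT7, KRT19, FGA and FGB were at 0 in both. Their summed level, 177 FPKM with the vector and 324 FPKM with NICD1, came mostly from KRT8 and KRT18. Of 7 genes listed for HEK293, a human embryonic kidney line whose derivative HEK293FT was also cultured in the study, 6 reached 1 FPKM in either library, with sums of 236 and 223 FPKM. The highest of them was CDKN2A, a gene that A549 cells are known to have lost, at 139 and 138 FPKM. CDKN2A alone made up most of both sums. In A549-Vector, AKR1C1 of the A549 list stood at 1.15 FPKM and had rank 12121 of 19198 genes. Most genes thus reached 1 FPKM there, so the count of 6 in 7 says little about HEK293. The part of the cell line in the results below was not tested.

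HES5, HEYL and HEY2 stood apart from the other members. HES5 was 15.2-fold higher in A549-NICD1, HEYL 3.33-fold and HEY2 3.02-fold, whereas HES4, HEY1, HES1 and HES7 were higher by less than 2-fold and HES6 and HES2 were lower. A gene counted as past the threshold when its log2 ratio on FPKM plus 0.1 was at least 1 in either direction after trimmed-mean scaling between the libraries, and genes with a mean of at least 0.5 FPKM over both libraries were counted. With this rule 8 of the 9 members passed the filter, 3 of them were at least 2-fold higher and 0 were at least 2-fold lower. Over all 13129 genes past the filter, 0.876% were at least 2-fold higher and 0.411% at least 2-fold lower. The median log2 ratio of the 8 members was 0.58, against 0.00 for all genes. The member that did not pass, HES2, had a mean of 0.244 FPKM, and none of the 8 others passed through A549-NICD1 alone, since each was above 1 FPKM in A549-Vector.

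**Figure D1:**
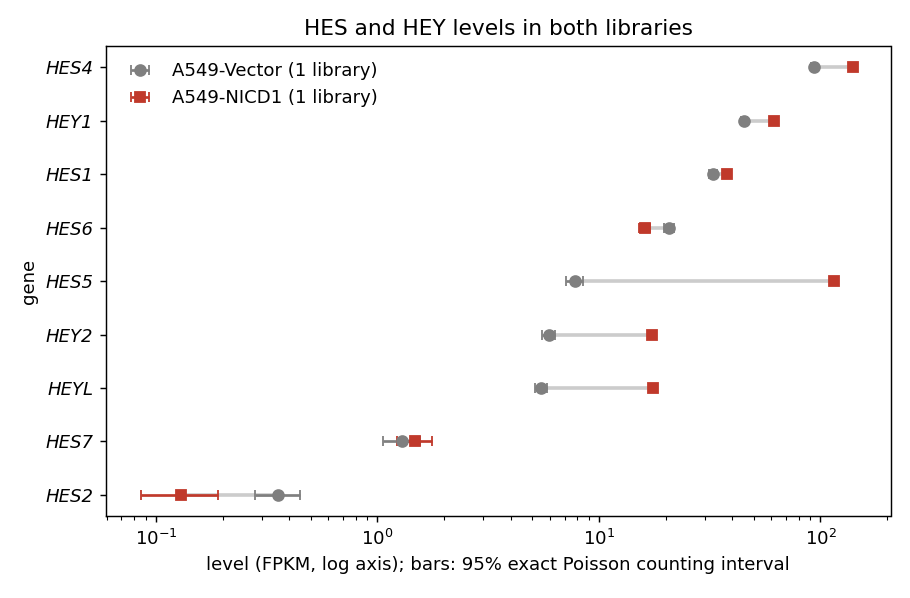
Level of each HES and HEY gene in FPKM on a log axis, with a gray circle for the A549-Vector library, a red square for the A549-NICD1 library and bars for the 95% exact Poisson counting interval. HES5 spans the longest distance, from 7.78 to 115 FPKM, while HES7 at 1.29 and 1.48 FPKM has overlapping bars.

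Sequences around 5 start sites are shown because they hold the core motif of RBP-Jκ, the letters TGGGAA, and because they belong to the 3 members past 2-fold and to HES1 and HES4, which were not. They are those of RefSeq on GRCh38.p14, read 5′ to 3′ along the strand of the gene, and capitals mark TGGGAA, or TTCCCA where the motif lies on the opposite strand. In GENCODE 29 the first exon of HEYL begins 302 bases before the RefSeq start, that of HES4 75 bases, that of HEY2 52 bases and that of HES1 3 bases before it, so that both motifs of HEYL and 1 motif of HEY2 lie in annotated exon, and that of HES4 runs into it. Stretches before the first annotated exon base are given whole for HES5 (chr1:2530264-2530513, minus strand), HEY2 (chr6:125749382-125749579, plus strand) and HES1 (chr3:194135898-194136144, plus strand). Motifs in exons are given with 10 bases on either side, at chr1:39639806-39639831 and chr1:39639727-39639752 for HEYL (minus strand), chr6:125749619-125749644 for HEY2 and chr1:1000158-1000183 for HES4 (minus strand).
HES5: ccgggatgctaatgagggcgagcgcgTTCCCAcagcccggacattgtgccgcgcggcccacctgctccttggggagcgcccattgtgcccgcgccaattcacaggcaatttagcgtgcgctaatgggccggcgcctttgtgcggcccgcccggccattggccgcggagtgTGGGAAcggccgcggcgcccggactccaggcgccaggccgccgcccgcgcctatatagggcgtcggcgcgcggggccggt
HEY2: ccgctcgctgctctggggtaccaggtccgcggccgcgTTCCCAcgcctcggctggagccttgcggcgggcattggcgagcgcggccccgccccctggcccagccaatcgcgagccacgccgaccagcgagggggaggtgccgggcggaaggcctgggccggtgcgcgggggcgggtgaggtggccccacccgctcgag
HES1: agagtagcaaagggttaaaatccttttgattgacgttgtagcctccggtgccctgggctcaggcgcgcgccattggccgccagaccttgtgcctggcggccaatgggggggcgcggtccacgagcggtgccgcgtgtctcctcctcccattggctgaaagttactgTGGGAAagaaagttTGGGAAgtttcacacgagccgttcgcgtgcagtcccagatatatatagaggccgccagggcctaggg
HEYL, farther motif: gcctagggccTTCCCAcggctcggcg
HEYL, nearer motif: gaaagggcccTGGGAAagggcggtgg
HEY2, nearer motif: agttgcggcgTGGGAAagagccgcta
HES4: ggggcgagtgTGGGAAagaatgcgga

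HES5, which keeps neural progenitor cells undifferentiated together with HES1, had 494 reads in A549-Vector and 7264 reads in A549-NICD1, that is, 7.78 FPKM and 115 FPKM. It was a gene of middling level in the control library, at rank 8079 of 19198 genes, and stood at rank 476 in A549-NICD1. Its log2 ratio was 3.93, with a 95% Clopper-Pearson counting interval of 3.81 to 4.08 for the ratio of reads. By log2 ratio HES5 ranked 7 among the 13129 genes past the filter. The 5 genes whose log2 ratio was nearest to that of HES5 were ANKRD1 at 3.89, SNAI2 at 4.01, KCNA5 at 3.73, CALCB at 3.71 and SCGB1A1, a secretory airway gene that was listed at 0 in A549-Vector and at 1.64 FPKM in A549-NICD1. With 1 library a side, this likeness compares a single ratio per gene. KCNA5 had 5 reads in A549-Vector, and on reads alone its log2 ratio was 5.57 (interval 4.33 to 7.21), which did not overlap that of HES5. The interval of CALCB on reads, 3.66 to 3.78, did not overlap that of HES5 either. Those of ANKRD1 (3.80 to 4.01) and SNAI2 (3.85 to 4.66) did. KCNA5 and SCGB1A1 passed the filter through A549-NICD1 alone, and their nearness to HES5 depends on the 0.1 added to the FPKM.

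HEYL and HEY2, relatives of HES that are best known from heart and vessel development, behaved alike. HEYL had 1093 reads in A549-Vector and 3519 in A549-NICD1, or 5.47 and 17.6 FPKM. Its log2 ratio was 1.73 (interval 1.65 to 1.85), the 31st highest of the genes past the filter. HEY2 had 770 and 2250 reads, or 5.93 and 17.4 FPKM, with a log2 ratio of 1.60 (interval 1.49 to 1.73) and rank 38. In each library the counting intervals of the levels of these paralogs overlapped, so that HEYL and HEY2 could not be ordered by level, and the intervals of their log2 ratios overlapped as well. In these bulk libraries, more transcript per cell and more cells with the transcript cannot be told apart.

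HES4, a paralog found in humans but not in mice, was the highest member in both libraries, at 93.4 FPKM with the vector and 140 FPKM with NICD1. Its 4538 and 6773 reads gave a log2 ratio of 0.64 (interval 0.59 to 0.70). HEY1, the remaining HEY paralog, stood at 45.2 and 61.8 FPKM and had a log2 ratio of 0.51 (interval 0.46 to 0.57). HES1, the most widely expressed Notch target of the family, stood at 32.7 and 37.7 FPKM, and its 2320 and 2672 reads gave a log2 ratio of 0.27 (interval 0.19 to 0.35). For these 3 genes the difference was larger than counting error and smaller than 2-fold, and the middle 95% of all genes past the filter ran from -0.63 to 0.60. HEY1 and HES1 lay inside that range, and HES4 lay just above its upper end.

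HES7, known for its part in the segmentation clock of the embryo, was measured at 1.29 FPKM with the vector and 1.48 FPKM with NICD1. Its log2 ratio of 0.24 had an interval of -0.13 to 0.65, so a difference was not detectable at this depth. HES6, an atypical member that antagonizes HES1 and favors neuronal differentiation, went the other way, from 20.8 FPKM with the vector to 16.1 FPKM with NICD1. With 1455 and 1122 reads, its log2 ratio was -0.31 (interval -0.42 to -0.20), and it was the single member past the filter with a ratio below 0. HES2 was close to the detection limit, with 74 reads in A549-Vector and 27 in A549-NICD1, or 0.357 and 0.131 FPKM. Its log2 ratio was -0.95 on FPKM plus 0.1 and -1.39 on reads alone (interval -2.08 to -0.74), and 305 bases of its annotated transcripts matched FOXK1 at 95% identity or more, so that some of these reads may not be its own. No such match was found for the 8 other members, and no exon of another gene overlapped an exon of any of the 9.

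**Figure D2:**
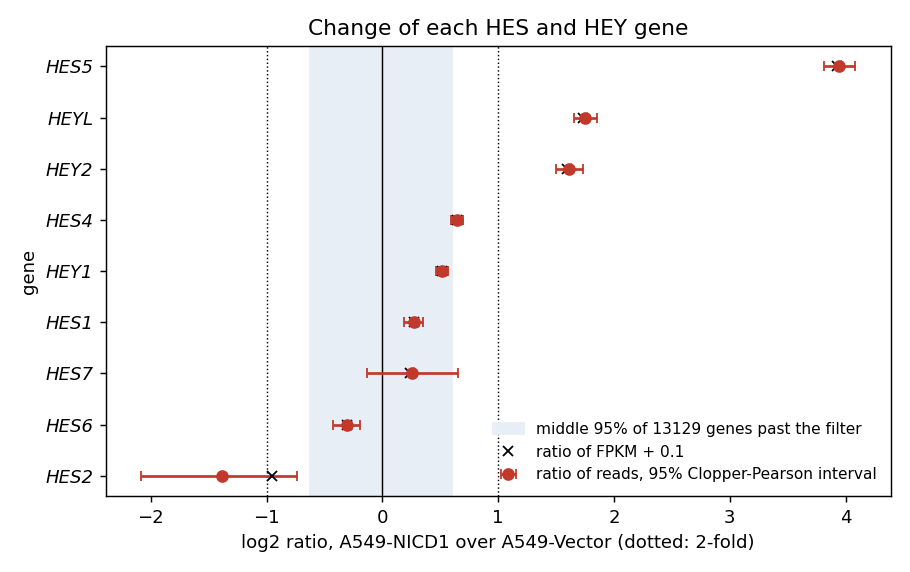
Log2 ratio of A549-NICD1 over A549-Vector for each member, with red circles for the ratio of reads, bars for its 95% Clopper-Pearson counting interval, crosses for the ratio of FPKM plus 0.1, dotted lines at 2-fold and a shaded band for the middle 95% of 13129 genes. HES5, HEYL and HEY2 lie beyond the upper dotted line, and the bars of HES7 cross 0.

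The members with the largest ratios were not those with the highest control levels. HES5, HEY2 and HEYL lay between 5.47 and 7.78 FPKM in A549-Vector, whereas HES4, HEY1, HES1 and HES6, all at 20.8 FPKM or more there, stayed within 2-fold. The lowest members, HES7 and HES2 at 1.29 and 0.357 FPKM, were within 2-fold on this scale as well, although HES2 was beyond it on reads, so the relation with control level did not run in 1 direction.

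**Figure D3:**
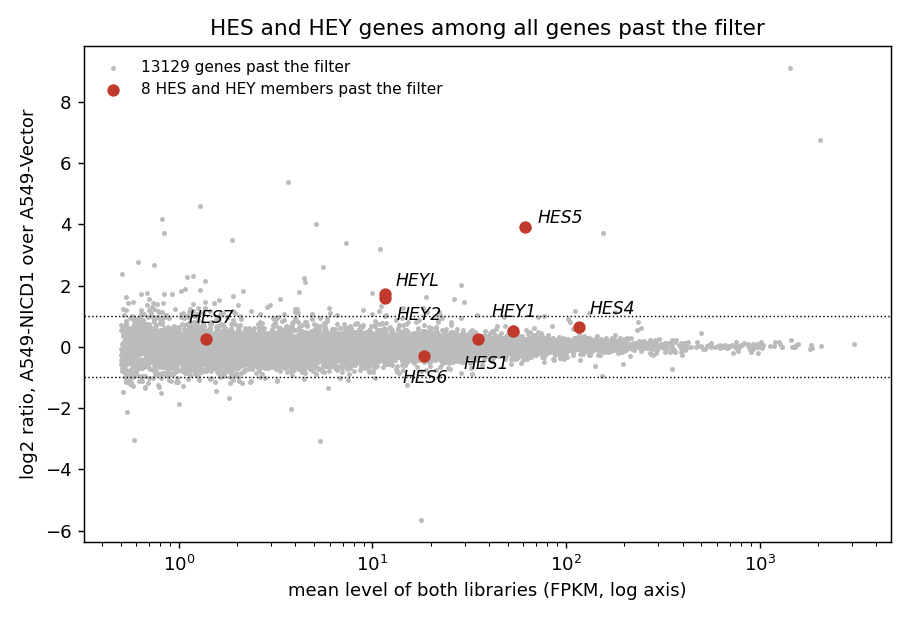
Log2 ratio of A549-NICD1 over A549-Vector against the mean level of both libraries in FPKM on a log axis, with gray points for the 13129 genes past the filter, red points for the 8 members among them and dotted lines at 2-fold. HES5 at 3.93 lies far above the cloud at its mean level of 61.2 FPKM, and HES4 at 0.64 lies at its upper edge.

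The make-up of the family's transcripts differed chiefly in HES5. Per gene length, the 9 members summed to 213 FPKM with the vector and 406 FPKM with NICD1. These sums and the gain between them use FPKM without the scaling applied to the log2 ratios. The sum was 1.91-fold higher with NICD1, or 1.99-fold with that scaling. HES5 made up 3.66% of the sum with the vector and 28.2% with NICD1, and accounted for 55.2% of the gain of 193 FPKM. HES4 accounted for a further 23.9% of that gain, since its modest ratio acted on a high level, and its share of the sum went from 43.9% to 34.4%. Without HES5 the other members summed to 205 and 292 FPKM. HES1 held 15.3% of the sum with the vector and 9.28% with NICD1, and HEY1 held 21.2% and 15.2%, so both took a smaller share although their own levels were higher.

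**Figure D4:**
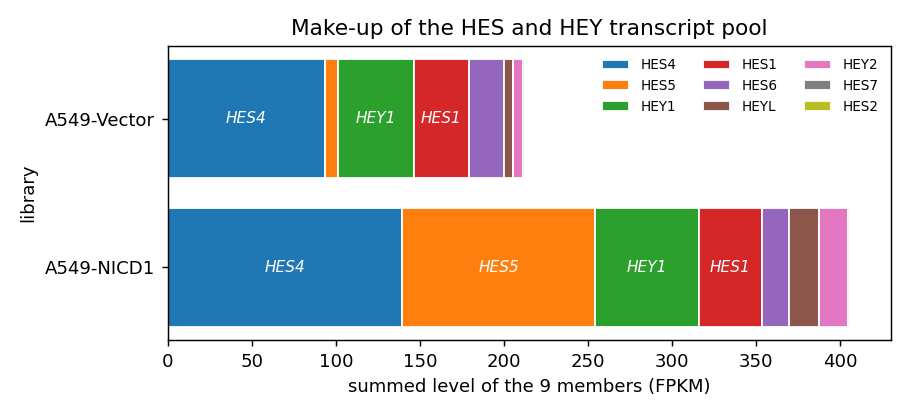
Summed level of the 9 members in FPKM, with 1 bar for each library and 1 color for each gene. The HES5 segment is 7.78 FPKM wide in the upper bar and 115 FPKM wide in the lower bar, and HES4 is the widest segment in both bars.

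The order of the levels differed accordingly. In A549-Vector it ran HES4, HEY1, HES1, HES6, HES5, HEY2, HEYL, HES7 and HES2, and the neighbors HEY2 and HEYL were the single pair whose counting intervals overlapped. In A549-NICD1 HES5 stood second after HES4, followed by HEY1, HES1, HEYL, HEY2, HES6, HES7 and HES2, and there the intervals of HEYL and HEY2 and those of HEY2 and HES6 overlapped. HES5 per HES1 transcript, both per gene length, went from 0.238 to 3.04. Among the HEY genes, HEYL per HEY1 went from 0.121 to 0.285 and HEY2 per HEY1 from 0.131 to 0.281, while HEYL per HEY2 was 0.922 and 1.02.

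Of the windows from 250 bases before to 50 bases after the start site, 8 members had an entry and HEY1 was not among them. The core motif TGGGAA, searched on both strands, occurred in 5 of these 8, against 24.3% of 27305 promoters of the same length. HES5, HEYL and HEY2 each held it once on either strand. Of all promoters, 1.78% held at least 1 match on each strand. In HES5 the motif began 224 bases before the start site on the opposite strand and 80 bases before it on the gene strand. The corresponding distances were 178 and 99 bases in HEYL and 213 and 3 bases in HEY2. HES1 held the motif on the gene strand alone, 84 and 70 bases before the start site, and HES4 held it once, 76 bases before it. HES2, HES6 and HES7 had no match in this window, which says only that these letters were not in it. The longer form GTGGGAA, which contains the core, occurred in the same 5 members and in 6.28% of all promoters. These matches describe the sequence and do not show that RBP-Jκ was bound there.

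The core motif of RBP-Jκ was set beside the recognition letters of HES and HEY proteins in the same windows. CACGTG, the E-box that HEY proteins are known to bind, occurred in 0 of the 8 windows and in 7.43% of all promoters. CACNAG, the N-box of HES proteins, occurred in HES1, HES2 and HES7 and in 38.0% of all promoters. HES1 held 4 matches, which 0.282% of promoters reached, at 165, 132 and 58 bases before the start site and at base 16 after it.

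Close relatives of the family outside the named members were followed in a list of bHLH-Orange repressors. HELT, a HES-like factor of the developing midbrain, had 1.70 FPKM with the vector and 4.96 FPKM with NICD1, a log2 ratio of 1.55 (interval 1.21 to 2.02) close to that of HEY2. BHLHE40, a repressor of circadian and hypoxia responses, was at 15.0 and 29.8 FPKM with a log2 ratio of 1.05 (interval 0.98 to 1.13), while BHLHE41 was at 1.94 and 1.66 FPKM. HES3 had 2 reads in each library. Thus 2 of the 3 listed relatives past the filter were at least 2-fold higher, against 0.876% of all genes past the filter. The interval of BHLHE40 included 2-fold, however. Without further scaling, 2 rather than 3 of all listed Notch pathway genes were past 2-fold.

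The genes that carry the signal to HES and HEY and the partners of these repressors were described by the same counts. Together with the relatives above, 9 lists of Notch pathway genes held 63 genes with a value, of which 53 passed the filter. Their median log2 ratio was 0.03. Of these 53, 3 (5.66%) were at least 2-fold higher and 0 were at least 2-fold lower, against 0.876% and 0.411% of all genes. Without the lists of bHLH-Orange repressors and proneural factors, 1 of 48 (2.08%) was higher. The 3 genes were HELT, BHLHE40 and JAG1, a Notch ligand. JAG1 had 4.69 FPKM in the vector library and 15.2 FPKM in the NICD1 library. Its log2 ratio was 1.74 (interval 1.68 to 1.85), next to that of HEYL. DLL1 was at 2.88 and 4.84 FPKM (log2 ratio 0.79, interval 0.65 to 0.98) and DLL4 at 0.415 and 0.795 FPKM (0.85, interval 0.57 to 1.44), whereas DLL3 was at -0.18 and JAG2, the lowest, at -0.24. The median of the 5 ligands was 0.79, the value of DLL1. DLL4 counts in this median although it passed the filter through A549-NICD1 alone.

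Within the nuclear complex, the 9 genes listed all passed the filter and their median log2 ratio was -0.03. RBPJ itself, the DNA-binding partner of NICD1, was at 38.0 FPKM with the vector and 30.9 FPKM with NICD1. CREBBP was the highest of this list at a log2 ratio of 0.21, and MAML3, a Mastermind coactivator, the lowest at -0.55. Among 8 corepressors of RBP-Jκ the ratios ran from -0.20 for SPEN to 0.14 for HDAC2. Among 6 Groucho/TLE genes, whose proteins HES factors recruit, they ran from -0.61 for TLE2 to 0.30 for TLE3. NOTCH2 and NOTCH3, the other receptors past the filter, had log2 ratios of -0.04 and 0.04, and the 8 protease genes ran from -0.01 for ADAM17 to 0.18 for NCSTN. NRARP, a feedback inhibitor of the NICD complex, went from 16.1 to 29.5 FPKM, a log2 ratio of 0.94 that was the highest of its list and short of 2-fold, and DTX4 was the lowest of that list past the filter at -0.45. Below the filter, MFNG was at 0.583 FPKM with the vector and 0.247 FPKM with NICD1. DTX1, also below it, went the other way, from 0.0876 FPKM (14 reads) to 0.194 FPKM (31 reads).

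The proneural factors, the classical genes repressed by HES, were scarce in both libraries. Of 8 listed, 2 passed the filter, OLIG2 at 3.29 and 3.79 FPKM (vector and NICD1) and NEUROG2 at 0.747 and 0.883 FPKM. NEUROD1 was at 0 in both, so that a lower level of NEUROD1 was not detectable at this depth.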

How the data were processed

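PolyA RNA of A549-NICD1 and A549-Vector cells was sequenced, with 1 library for each genotype label. The authors deposited 1 FPKM value per gene and library. The submitters' processing notes name Bowtie2, HTSeq and hg38 without roles or versions, and the annotation is not given in the sources used here. That the values are FPKM was read from the values themselves. Gene names had turned into dates in 27 rows, which were left out of the tables.

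Low values stepped in whole reads, which gave the ratio of the depths. Depths were then sought at which gene lengths came out whole, within 0.005 bases. At 48528434 reads for A549-NICD1 this held for 72.5% of 400 genes, and with that depth raised by 1 percent for 0.5%. Candidate depths at simple fractions were compared by how many of 5972 genes had the length of a GENCODE 29 transcript (181, against 74 or fewer). At the candidate of 24264217 reads 79.5% of the lengths were whole, so the depth given rests on the match to annotated lengths, and a lower depth would mean fewer reads and wider intervals. Lengths of members were taken as the whole multiple nearest an annotated transcript. For HES5, HEY2 and HES7 smaller multiples also fit, which would widen their intervals to 3.76 to 4.14, 1.44 to 1.78 and -0.65 to 1.18. The same held for HELT (1.04 to 2.21) and DLL4 (0.24 to 1.80). It also held for ANKRD1 (3.76 to 4.05) and CALCB (3.63 to 3.81), and the widened intervals of CALCB and HES5 would overlap. The exact intervals (95%) take in counting error alone. Reads carried no molecular identifiers and need not be independent molecules.

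Log2 ratios used FPKM plus 0.1 and trimmed-mean scaling between the libraries (30% of ratios and 5% of levels trimmed at each end, factor 0.957), over genes with a mean of at least 0.5 FPKM. On this scale the ratios of low genes are understated. The threshold was 2-fold. No p-value was computed. Alternatives were the pseudocount, the scaling, the filter, the threshold and recovered reads. Shared sequence was searched with blastn 2.17.0. The steps were tested on simulated reads, with Python 3.11.15, numpy 2.4.6 and scipy 1.17.1. Genes named were the members, NOTCH1, the 5 genes nearest to HES5 by log2 ratio, the extremes of each pathway list and genes past 2-fold in it, and markers of the cell lines. Members, lists and rules were chosen with earlier results of these data known. The motif, chromosomal neighbor and sequence-sharing descriptions were chosen after the values were seen. So were BHLHE41, HES3, RBPJ, RFC4, KRT18, DLL1, DLL3, DLL4, DTX1, MFNG and NEUROD1 as examples. Not every listed gene is reported here.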

Additional observations from a re-analysis of the deposited data

How the results depend on the processing

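No paired analysis was possible because there was 1 library per condition, and leaving out a library was not possible for the same reason. Each of the 9 members kept the sign of its log2 ratio in all 6 alternatives run, of which the ratio on recovered reads plus 0.5 was chosen after seeing the data. A pseudocount cannot change a sign. The scalings moved ratios by at most 0.06, less than the 0.24 of HES7, the ratio nearest 0. The kept signs were therefore fixed beforehand in these settings and are no check of the differences. The 3 members at least 2-fold higher and 0 at least 2-fold lower stood in each setting on FPKM except the 1.5-fold threshold, where 4 were higher. With a pseudocount of 0.01 FPKM HES2 was at -1.33, and it was not counted there because it did not pass the filter. Members were not counted on recovered reads, where HES2 was at -1.37. With a pseudocount of 1 FPKM, HES5 was at 3.78, HEYL at 1.59, HEY2 at 1.47 and HES2 at -0.26, below or nearer 0 than their counting intervals, because the pseudocount is large beside low levels. Without further scaling HES4 was at 0.58 and HEY1 at 0.45, and the median of all genes moved by 0.06. Counts over all genes, 115 higher and 54 lower, became 48 and 7 with a pseudocount of 1 FPKM, 375 and 141 without a filter, and 345 and 397 at 1.5-fold, and 26 were lower with a mean of at least 1 FPKM. Without further scaling, 2 rather than 3 other Notch pathway genes were at least 2-fold higher. At 1.5-fold, 6 of the other Notch pathway genes were higher and 1 was lower. When reads were not divided by length, the shares in A549-NICD1 were 8.80% for HES1, 0.0889% for HES2, 22.3% for HES4, 23.9% for HES5, 3.69% for HES6, 21.8% for HEY1, 7.41% for HEY2 and 11.6% for HEYL, and in A549-Vector 0.471% for HES2, 28.9% for HES4, 3.15% for HES5, 9.26% for HES6, 30.9% for HEY1, 4.90% for HEY2 and 6.96% for HEYL. Thus HES5 rather than HES4 had the largest share in A549-NICD1 by reads, and HEY1 rather than HES4 in A549-Vector. Depth limits HES2 and HES7, with 27 to 120 reads a library, and HES3.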

Other observations

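The genes around the members on the chromosome were described as well. For each member the 10 nearest genes past the filter were taken from RefSeq on GRCh38.p14. Around each of the 9 members, 0 of the 10 were at least 2-fold higher or lower. Over all genes past the filter 98.7% were within 2-fold, so a count of 0 in 10 is near that share and says little about these loci. HES5 lies on chromosome 1 from 2528745 to 2530263, and the log2 ratios of its 10 neighbors, within 609 kb, ran from -0.48 for PRDM16 to 0.20 for RER1. Around HEYL, on chromosome 1 from 39623435 to 39639643, they ran from -0.38 for OXCT2 to 0.33 for PABPC4. Around HEY2, on chromosome 6 from 125749632 to 125761269, they ran from -0.40 for RNF217 to 0.19 for NCOA7. HES2, HES4, HES5 and HEYL all lie on the short arm of chromosome 1, and their log2 ratios of -0.95, 0.64, 3.93 and 1.73 spanned the whole range of the family.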
